A study of Xenopus laevis with 115 samples.

Results

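Ectoderm of Xenopus laevis nuclear-transfer embryos was compared between embryos made from A485-treated donors and embryos made from A486-treated donors. Nuclear transfer (NT) places the nucleus of a donor cell into an egg. The 11 A485 and 13 A486 NT libraries were grouped by their titles, and make up 24 of the 115 samples of the series, 85 of which have a file. The wild-type donors were endoderm cells of stage 18 embryos that had been exposed to the compound from stage 12 onwards, and the ectoderm (animal cap) of the NT embryos was taken at stage 11, so the sequenced tissue itself was not labelled as treated. A-485 (A485 in the titles) was given at 30 µM. The labels neither describe A486 nor give its dose, so whether the doses match cannot be said. The titles number 3 experiments, which held 3, 5 and 3 A485 libraries and 5, 5 and 3 A486 libraries.

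A-485 is an inhibitor of the acetyltransferase activity of the paralogous coactivators p300 and CBP, which place acetyl groups on histones at enhancers and promoters of active genes. A compound called A-486 is known as its inactive analogue. In frog nuclear transfer, transcripts of the donor cell type can persist in other tissues of the new embryo, and acetylated chromatin of the donor nucleus is one of the features studied in that setting.

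Total expected counts, the deposited estimates of reads per transcript, ran from 10285642 to 21159480 in A485 and from 6468976 to 24820727 in A486 NT libraries. A transcript with few counts carries a large counting error at these depths. The labels do not say whether libraries of 1 experiment come from separate embryos or separate donors. The compound was given to the donors, so libraries of 1 group and experiment may not be independent replicates of the treatment. The test takes the 24 libraries, and not the 3 experiments, as replicates. Its p-values measure the spread between these libraries, which may be partly technical, and not the spread between treated donors. The tissue field of A485 library 1 of experiment 3 reads endoderm, against its title. Its log2 values correlated at 0.935 with the NT libraries of the other groups or experiments and at 0.738 with the donor endoderm libraries, and it was kept as NT ectoderm. The donor samples have a tissue field of endoderm and a cell type field of ectoderm, and they were taken as endoderm. The files and the reference table at hand do not pair these identifiers with gene symbols (0 of 44441 matched), so transcripts are given by identifier, no role is given, and marker genes of ectoderm and endoderm could not be checked.

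With the experiment number as a block, 35 of 20667 tested transcripts differed between A485 and A486 NT ectoderm (edgeR quasi-likelihood test, adjusted p under 0.05), which is 0.169% of those tested. Of these, 13 were higher with A485 (0.0629%) and 22 were lower (0.106%). The change was at least 1 in size on the log2 scale for 7 of the 13 higher and 10 of the 22 lower transcripts. Across all tested transcripts the median log2 fold change was 0.01, and 3193 (15.4%) had an unadjusted p under 0.05. The 35 had a median level of 7.52 CPM (counts scaled to the library total), against 13.5 CPM for all tested transcripts. In bulk tissue, fewer cells that hold a transcript and less of it per cell cannot be told apart.

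The number of calls depended on which libraries entered. It was 28 without the library whose tissue field reads endoderm. Leaving out any 1 library gave 21 to 53 calls, and the number moved by more than 1.5 times without A485 library 1 of experiment 1 (22), A485 library 4 of experiment 2 (22), A486 library 4 of experiment 2 (21), A486 library 5 of experiment 2 (53) or A486 library 3 of experiment 3 (22). Without the block 7 transcripts were called.

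**Figure D1:**
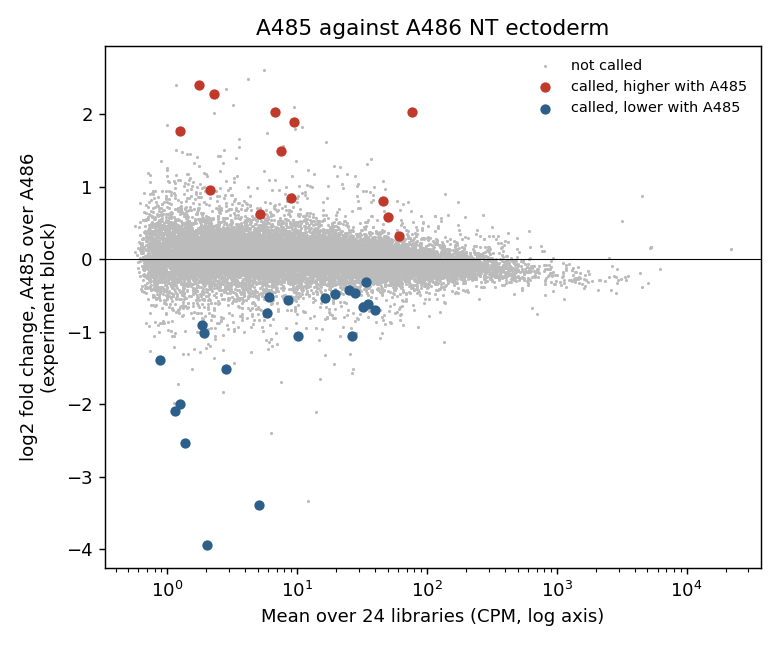
Each point is 1 of the 20667 tested transcripts, at its mean level over the 24 NT libraries (CPM, log axis) and its log2 fold change, A485 over A486, with the experiment as a block. The 13 transcripts called higher (red) and the 22 called lower (blue) with A485 spread from low to high levels, and many grey points with changes as large were not called.

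In 3 of the 35 transcripts no A485 library overlapped any A486 library, a pattern seen in 0.0145% of all tested transcripts. One was higher and both others were lower with A485. XBmRNA29620 (gene XBXL10_1g15868) had 2.40 CPM in the lowest, 4.33 in the median and 5.15 in the highest A485 library, against 0.254, 0.738 and 1.48 CPM in the lowest, median and highest A486 library. All 11 A485 libraries lay above all 13 A486 libraries. Its log2 fold change was 2.28 ± 0.19 (SE, the size of the fold change divided by the square root of the test's F; edgeR adjusted p = 3.97e-07).

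XBmRNA18476 (gene XBXL10_1g9887) had a lowest, median and highest level of 0.0746, 0.702 and 1.62 CPM in A485 libraries, against 3.08, 6.62 and 20.1 CPM in A486 libraries. Its log2 fold change was -3.39 ± 0.32 (SE; edgeR adjusted p = 2.12e-06). XBmRNA30476 (gene XBXL10_1g16236) ranged from 0 through a median of 0.275 to 0.711 CPM in A485 libraries, against 1.66, 2.97 and 7.95 CPM in A486 libraries, with a log2 fold change of -3.94 ± 0.46 (SE; edgeR adjusted p = 7.42e-05). Both were low in all 11 A485 libraries, and the A486 libraries were spread widely above them. Per length, the A485 mean was 0.408 TPM (a length-scaled unit) for XBmRNA18476 and 0.224 TPM for XBmRNA30476, against A486 means of 4.30 and 2.89 TPM for the same transcripts.

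XBmRNA74935 (gene XBXL10_1g39826) nearly separated the groups. Its lowest, median and highest levels were 0.0807, 0.283 and 1.19 CPM in A485 libraries, against 0.738, 2.24 and 3.68 CPM in A486 libraries, and 9 of the 11 A485 libraries lay below all A486 libraries. The log2 fold change was -2.54 ± 0.26 (SE; edgeR adjusted p = 9.97e-06). This transcript and the 3 whose groups did not overlap were called without each of the 3 experiments, and no other member of the 35 was.

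**Figure D2:**
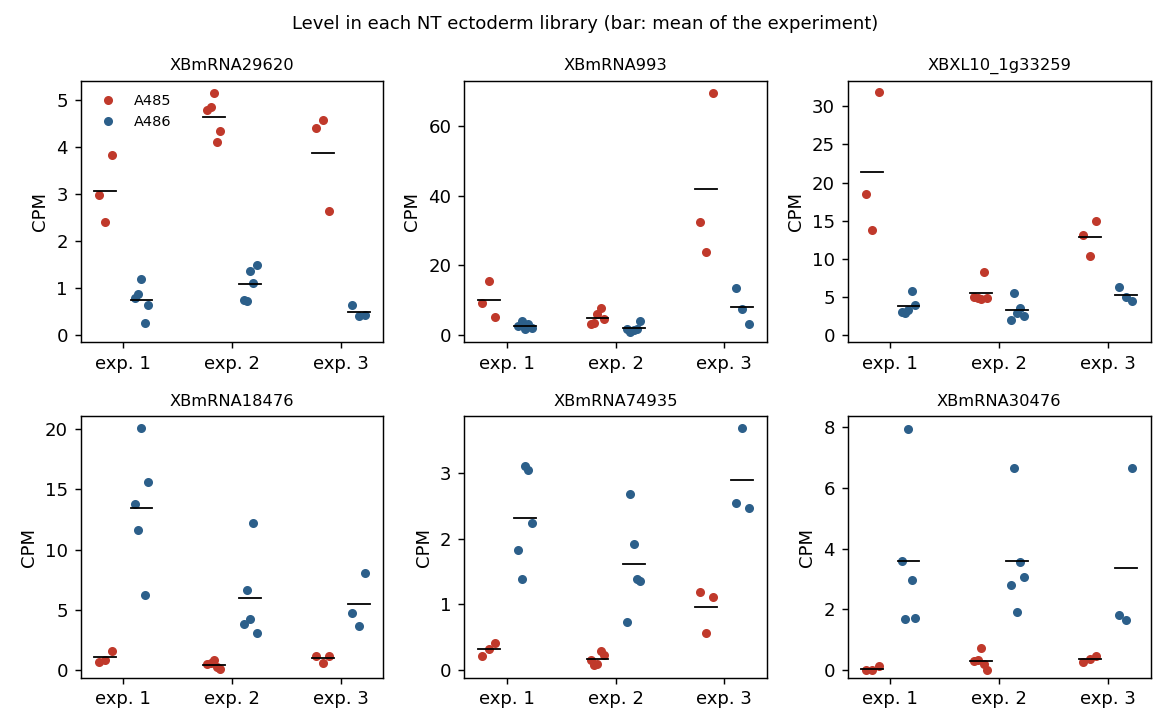
Level (CPM, linear axis) in each NT ectoderm library, A485 in red to the left of A486 in blue within each experiment, for the 3 transcripts with the smallest adjusted p in each direction. Bars are the experiment's mean. XBmRNA29620, XBmRNA18476 and XBmRNA30476 separate all 11 A485 from all 13 A486 libraries, while XBmRNA993 reaches 69.5 CPM only in experiment 3.

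Among the other transcripts higher with A485, levels also differed between the 3 experiments. XBmRNA68657 (gene XBXL10_1g36287) had 28.6 to 89.0 CPM in A485 libraries of experiment 1, against 3.86 to 8.22 CPM in A486 libraries. In experiment 2 it had 90.0 to 571 CPM in A485 libraries, against 50.9 to 130 CPM in A486 libraries. In experiment 3 it had 10.5 to 21.2 CPM in A485 libraries, against 3.68 to 7.99 CPM in A486 libraries. The groups overlapped in experiment 2 and did not in experiments 1 and 3, and the highest A486 library of experiment 2 lay above every A485 library of the other experiments. With the block its log2 fold change was 2.02 ± 0.33 (SE; edgeR adjusted p = 0.00671), and without the block the adjusted p was 0.489.

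XBXL10_1g36288, whose gene number follows that of XBmRNA68657, is a target of 78 bases. It ranged from 0.183 through a median of 1.71 to 13.0 CPM in A485 libraries, against 0, 0.211 and 1.85 CPM in A486 libraries. Its highest level was in the same library as that of XBmRNA68657, A485 library 4 of experiment 2, and 5 of the 11 A485 libraries lay above all A486 libraries. The log2 fold change was 2.40 ± 0.41 (SE; edgeR adjusted p = 0.00752).

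XBmRNA993 (gene XBXL10_1g736) had a lowest, median and highest level of 3.19, 7.65 and 69.5 CPM in A485 libraries, against 0.757, 2.46 and 13.5 CPM in A486 libraries. The highest libraries of both groups were of experiment 3, and 4 of the 11 A485 libraries lay above all A486 libraries. Its log2 fold change was 1.89 ± 0.29 (SE; edgeR adjusted p = 0.00341). XBXL10_1g33259 had 4.71, 10.4 and 31.8 CPM in the lowest, median and highest A485 library, against 1.92, 3.52 and 6.32 CPM in A486 libraries. It was highest in A485 libraries of experiment 1, and 7 of the 11 A485 libraries lay above all A486 libraries. Its log2 fold change was 1.49 ± 0.23 (SE; edgeR adjusted p = 0.00341).

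XBmRNA11146 (gene XBXL10_1g5957) was low in both groups in experiment 1, with 0.160 to 0.508 CPM in A485 libraries, against 0.170 to 0.510 CPM in A486 libraries. In experiment 2 it had 14.8 to 30.2 CPM in A485 libraries, against 3.33 to 12.2 CPM in A486 libraries. In experiment 3 it had 3.73 to 4.58 CPM in A485 libraries, against 0 to 0.186 CPM in A486 libraries. The groups were apart in experiments 2 and 3 and not in experiment 1. Its log2 fold change with the block was 2.03 ± 0.39 (SE; edgeR adjusted p = 0.0225). This call was lost when any of A485 library 4 of experiment 2 (adjusted p = 0.0594), A486 library 2 of experiment 3 and A486 library 3 of experiment 3 was left out.

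The other higher transcripts had log2 fold changes between 0.32 and 1.77. XBmRNA70090 (gene XBXL10_1g37158) ranged from 1.67 to 5.38 CPM in A485 libraries, against 1.25 to 2.07 CPM in A486 libraries, with a log2 fold change of 0.95 ± 0.16 (SE; edgeR adjusted p = 0.00752). XBmRNA29668 (gene XBXL10_1g15892) ranged from 6.28 to 30.3 CPM in A485 libraries, against 3.67 to 13.6 CPM in A486 libraries, with a log2 fold change of 0.84 ± 0.14 (SE). In both, the groups overlapped, although 9 of the 11 A485 libraries of XBmRNA70090 were above all A486 libraries. XBmRNA765 (gene XBXL10_1g642) averaged 67.3 ± 13.7 CPM in A485 and 54.8 ± 9.31 CPM in A486 libraries (SD, n = 11 and 13), a log2 fold change of 0.32 ± 0.06 (SE). XBmRNA44953 (gene XBXL10_1g24030) averaged 60.7 ± 12.5 CPM in A485 and 40.7 ± 10.0 CPM in A486 libraries, a log2 fold change of 0.58 ± 0.11 (SE). The call of XBmRNA44953 was lost without A485 library 1 of experiment 1 or without A486 library 4 of experiment 2 (adjusted p = 0.0556). The 3 higher transcripts not described one by one were XBmRNA44905, XBmRNA2551 and XBmRNA11644, with log2 fold changes between 0.63 and 1.77.

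Of the other transcripts lower with A485, XBmRNA47410 (gene XBXL10_1g25383) had 1.33 to 1.52 CPM in A485 libraries of experiment 1, against 4.91 to 7.70 CPM in A486 libraries. In experiment 2 it had 0.646 to 0.989 CPM in A485 libraries, against 0.832 to 1.88 CPM in A486 libraries. In experiment 3 it had 1.28 to 2.15 CPM in A485 libraries, against 4.41 to 6.13 CPM in A486 libraries. The groups overlapped only in experiment 2, where the A486 libraries themselves were low. With the block its log2 fold change was -1.51 ± 0.19 (SE; edgeR adjusted p = 0.000248).

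XBmRNA46209 (gene XBXL10_1g24752) ranged from 0 through a median of 0.432 to 1.28 CPM in A485 libraries, against 0.355, 1.97 and 3.50 CPM in A486 libraries, with a log2 fold change of -2.0 ± 0.31 (SE; edgeR adjusted p = 0.00341). XBmRNA73234 (gene XBXL10_1g38818) ranged from 0.0534 through 0.298 to 1.10 CPM in A485 libraries, against 0.0848, 1.55 and 3.76 CPM in A486 libraries, with a log2 fold change of -2.09 ± 0.35 (SE; edgeR adjusted p = 0.00727). In experiment 1 the groups of XBmRNA73234 overlapped at low levels, and it was not called without experiment 2 (adjusted p = 0.139).

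Lower transcripts at higher levels changed by smaller amounts. XBmRNA16453 (gene XBXL10_1g8773) averaged 27.0 ± 4.05 CPM in A485 and 42.5 ± 9.12 CPM in A486 libraries (SD, n = 11 and 13), a log2 fold change of -0.62 ± 0.09 (SE; edgeR adjusted p = 0.00209). XBmRNA30152 (gene XBXL10_1g16096) averaged 28.3 ± 5.59 CPM in A485 and 49.2 ± 15.4 CPM in A486 libraries, a log2 fold change of -0.70 ± 0.12 (SE). The groups overlapped in both, with 8 and 6 of the 11 A485 libraries below all A486 libraries. XBmRNA29603 (gene XBXL10_1g15863) averaged 12.9 ± 2.28 CPM in A485 and 19.3 ± 4.12 CPM in A486 libraries, and XBmRNA38077 (gene XBXL10_1g20695) 29.7 ± 3.05 CPM in A485 and 37.3 ± 4.70 CPM in A486 libraries. Their log2 fold changes were -0.54 ± 0.10 and -0.32 ± 0.06 (SE). Within each experiment the groups of XBmRNA38077 did not overlap, and neither did those of XBXL10_1g36288 and XBmRNA74935. The share of all tested transcripts with this pattern was not computed. The 12 lower transcripts not described here had log2 fold changes between -1.40 and -0.42 and adjusted p-values of 0.0225 to 0.0483.

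At the threshold, the last transcript called had an adjusted p of 0.0483 (XBmRNA4650, log2 fold change -0.42) and the first not called 0.0569, reached by XBmRNA23229 (0.87) and XBmRNA55380 (0.45). XBmRNA55380 moved most in experiment 1, where its log2 fold change was 1.02, against 0.11 in experiment 2 and 0.26 in experiment 3.

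All 35 transcripts had the same direction in the 3 experiments, as did 27.5% of all tested transcripts. The block test selects for this, so the shared direction of the 35 is a description. In the direction of the call, the median effect of the 35 was 0.92 in experiment 1, 0.87 in experiment 2 and 0.97 in experiment 3 on the log2 scale. The smallest was 0.17 in experiment 1 (XBmRNA11146), 0.23 in experiment 2 (XBmRNA38077) and 0.08 in experiment 3 (XBmRNA18522, a transcript with -1.41 in each of experiments 1 and 2).

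The log2 fold change of XBmRNA29620 was 2.01 ± 0.30, 2.09 ± 0.27 and 3.0 ± 0.36 (SE) in experiments 1, 2 and 3. XBmRNA18476 gave -3.65 ± 0.53, -3.82 ± 0.50 and -2.50 ± 0.57 in the same order. XBmRNA30476 gave -5.96 ± 0.96, -3.58 ± 0.64 and -3.16 ± 0.78, where 2 of the 3 A485 libraries of experiment 1 held no count, so its first value depends on the prior count. Each of the 3 moved by several SE in every experiment. XBmRNA74935 gave -2.83 ± 0.42, -3.25 ± 0.41 and -1.64 ± 0.40, and XBmRNA993 gave 1.95 ± 0.49, 1.45 ± 0.47 and 2.40 ± 0.55.

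The size of the effect differed between experiments for 3 of the 35, by a treatment-by-experiment term that was called for 580 (2.81%) of all tested transcripts. XBmRNA11146 had log2 fold changes of 0.17 ± 0.61, 1.69 ± 0.31 and 4.93 ± 0.59 (SE) in experiments 1, 2 and 3 (edgeR adjusted p of the term = 0.00597). XBXL10_1g33259 had 2.52 ± 0.30, 0.73 ± 0.27 and 1.29 ± 0.34 (adjusted p = 0.0389), and XBmRNA47410 had -2.20 ± 0.25, -0.74 ± 0.24 and -1.62 ± 0.26 (adjusted p = 0.0471). Estimates for each of these transcripts differed in size and kept 1 sign, which the block test selects for. That of XBmRNA11146 in experiment 1 was smaller than its SE. Leaving out 1 library gave 327 to 1273 transcripts with the term called. The number moved by more than 1.5 times for A485 libraries 2 and 3 and A486 libraries 1, 2 and 5 of experiment 1, A485 library 3 of experiment 2, and A485 library 3 and A486 library 2 of experiment 3.

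**Figure D3:**
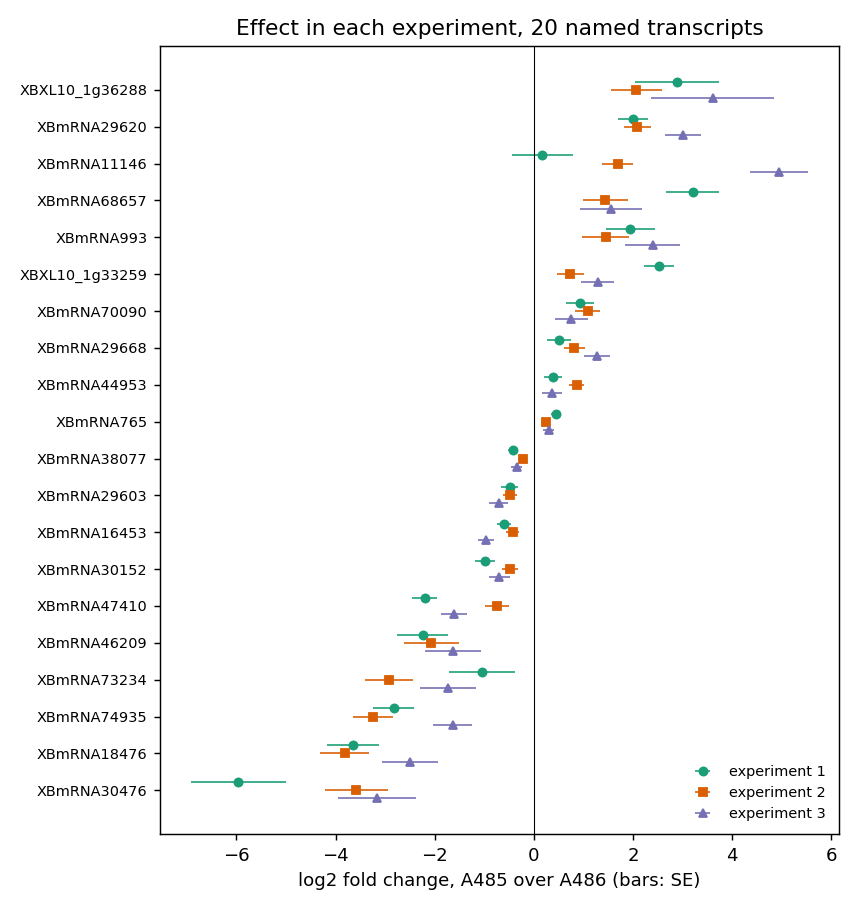
Log2 fold change, A485 over A486, in each of the 3 experiments (symbols, with bars of 1 SE) for the 20 transcripts named by rule. All 60 values lie on the side of the call, and those of XBmRNA11146 run from 0.17 in experiment 1 to 4.93 in experiment 3.

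Within single experiments the numbers of calls were far apart. In a model with a mean for each group and experiment, 3798 transcripts (18.4%) were called in experiment 1, 151 (0.731%) in experiment 2 and 137 (0.663%) in experiment 3. The count of experiment 1 rested on single libraries. It was 129 when A485 library 2 was left out. Of the 24 libraries, this one correlated least with its own group and experiment (0.957) and with the other NT libraries (0.926). The count was 1678, 1783 and 1469 when A486 library 2, 3 or 5 was left out in turn, and 212 when the experiment was fitted alone. In experiment 3 the count was 89 and 84 when A485 library 1 or 3 was dropped, 89 and 77 when A486 library 2 or 3 was dropped, and 89 when the experiment was fitted alone. Of the 35 transcripts, 25 were called in experiment 1, 10 in experiment 2 and 7 in experiment 3. The p needed for a call depends on how many transcripts are called, so these 3 counts are at unlike cutoffs. At an unadjusted p under 0.05 (edgeR, same model) the counts were 32, 34 and 28, and the shares of all tested transcripts were not computed. When each experiment was fitted alone, 9 of 32, 9 of 33 and 3 of 34 tested were called. Among all transcripts, the fits alone called 212 of 21352, 101 of 20382 and 89 of 22167. The 35 were chosen from these same libraries, so their counts are a description. In the joint model XBmRNA29620 and XBmRNA18476 were called in all 3.

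Transcripts called in more than 1 experiment did not always go in the same direction. Of 36 called in both experiments 1 and 2, 24 had opposite signs, as had 18 of 44 called in experiments 1 and 3 and 23 of 26 called in experiments 2 and 3. In all, 60 of the 20667 tested transcripts were called with opposite signs. The share of opposite signs among all tested transcripts was not computed for each pair, so these counts are a description. Of all tested transcripts, 27.5% had the same sign in the 3 experiments. None of the 35 could be among them, as all 35 had 1 direction, which the block test selects for. XBXL10_1g25801 averaged 0.214 CPM in A485 and 4.60 CPM in A486 libraries of experiment 1, 3.27 CPM in A485 and 0.0378 CPM in A486 libraries of experiment 2, and 0.159 CPM in A485 and 7.89 CPM in A486 libraries of experiment 3. The groups were apart in every experiment, and the higher group changed. The corresponding log2 fold changes were -4.43 ± 0.61, 5.66 ± 0.62 and -5.55 ± 0.69 (SE).

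XBmRNA23489 (gene XBXL10_1g12558) averaged 9.15 CPM in A485 and 0.853 CPM in A486 libraries of experiment 1, and 1.22 CPM in A485 and 5.62 CPM in A486 libraries of experiment 2. In experiment 3 it averaged 0.916 CPM in A485 and 1.14 CPM in A486 libraries, and the groups overlapped there. XBmRNA48721 (gene XBXL10_1g26032) averaged 5.90 CPM in A485 and 21.2 CPM in A486 libraries of experiment 1, and 9.81 CPM in A485 and 0.123 CPM in A486 libraries of experiment 3. It was at most 0.149 CPM in A485 and 0.142 CPM in A486 libraries of experiment 2.

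An experiment left out of the fit gave a reading that the calls had not used. Transcripts called in 2 experiments were read in the third, fitted alone. Without experiment 1, 12 transcripts were called, and 6 of the 10 tested in experiment 1 had the same sign there, against 55.3% of all transcripts tested in both. Without experiment 2, 81 were called, and 35 of 75 (46.7%) kept their sign in experiment 2, against 49.8% of all. Without experiment 3, 25 were called, and 18 of 25 (72%) kept their sign in experiment 3, against 55% of all. With calls at an adjusted p under 0.2 the shares were 42.1% (16 of 38) in experiment 1, 46.5% in experiment 2 and 51.5% (620 of 1203) in experiment 3, each under the share of all transcripts. With the first threshold, 4 of 10, 12 of 75 and 10 of 25 reached an unadjusted p under 0.05 (edgeR) with the same sign. With the opposite sign 2, 9 and 4 did. Of all transcripts tested in both, 18.2%, 3.32% and 3.58% did so with the same sign, and 29.9%, 7.87% and 7.25% with either. At an adjusted p under 0.2, 10, 98 and 53 did so with the same sign and 8, 198 and 77 with the opposite sign. Of the 35 transcripts called with all experiments, 7, 16 and 15 were among the calls without experiment 1, 2 and 3.

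The donor endoderm itself was compared in 6 A485 and 6 A486 libraries, 2 of each per experiment. None of 20220 transcripts was called (0%; edgeR, experiment block; smallest adjusted p 0.531), 1878 (9.29%) had an unadjusted p under 0.05, and DESeq2 called 44. Of the 35 NT transcripts 31 were tested in donors, and 8 of them had the same sign as in NT ectoderm, against 44.1% of all transcripts tested in both. Only XBmRNA765, XBmRNA15075 and XBmRNA4650 had an unadjusted p under 0.05, with donor log2 fold changes of -1.07 ± 0.47, 0.62 ± 0.24 and 0.32 ± 0.12 (SE), each opposite in sign to NT ectoderm. That of XBmRNA765 held 1 A486 library at 461 CPM, where the next was at 95.7 CPM.

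XBmRNA29620 had 1.37 to 9.25 CPM in A485 and 0.907 to 6.44 CPM in A486 donor libraries, and a donor log2 fold change of 0.53 ± 0.45 (SE). XBmRNA18476 had 0.274 to 1.55 CPM in A485 and 0.348 to 1.01 CPM in A486 donor libraries, and a change of 0.16 ± 0.45. XBmRNA30476 had 0 to 8.89 CPM in A485 and 0 to 4.25 CPM in A486 donor libraries, and a change of -0.38 ± 0.84. Donor groups overlapped in all 3, and these intervals are wide.

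Ectoderm of fertilised (IVF) embryos of stage 11, which saw no nuclear transfer, was at hand in 4 libraries of experiment 1. XBmRNA18476 had 7.68, 2.42, 1.60 and 18.2 CPM in them. XBmRNA30476 had 6.83, 0, 3.39 and 1.61 CPM, and XBmRNA29620 had 0.498, 3.30, 0.678 and 2.34 CPM. Scaled together with the donor and IVF libraries, as these values are, XBmRNA18476 ranged from 0.0654 to 1.41 CPM in A485 and from 2.73 to 17.1 CPM in A486 NT libraries, so no IVF library lay in the A485 range and 1 lay in the A486 range. XBmRNA30476 ranged on that scale from 0 to 0.623 CPM in A485 and from 1.41 to 6.78 CPM in A486 NT libraries, with 1 IVF library in the A485 and 2 in the A486 range. XBmRNA29620 ranged from 2.08 to 4.52 CPM in A485 and from 0.218 to 1.31 CPM in A486 NT libraries, with 2 IVF libraries in each range.

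A486 donor endoderm (2 libraries) was set against IVF ectoderm (4 libraries) in experiment 1. The donors were of stage 18 and exposed to A486, and the IVF embryos were of stage 11 with no exposure in the labels. Tissue, stage and exposure can thus not be told apart in this comparison. There, 24.6% of 22089 transcripts were higher and 23.4% lower in donors (edgeR adjusted p under 0.05). Of the 12 tested transcripts higher with A485 in NT ectoderm, 4 were higher and 2 lower in donors. Of the 22 lower with A485, 5 were higher and 4 lower in donors. XBmRNA993 was higher in donors by 3.97 ± 0.69 and XBmRNA4650 by 2.42 ± 0.19 on the log2 scale (SE), while XBmRNA73234 was lower by a log2 fold change of -6.60 ± 1.35 and XBmRNA44905 by one of -3.52 ± 0.57. The 2 donor libraries of XBmRNA993 were at 21.9 and 3.32 CPM, so the size of its change leans on the first. Those of XBmRNA73234 were at 0 and 0.0721 CPM, near the floor. Its IVF libraries were at 0.726 CPM in library 4 and at 5.72 CPM or more in the others, so the size of its change is uncertain too.

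With the experiments joined, transcripts higher in donor libraries than in IVF ectoderm had a median near that of all tested transcripts. The 3351 transcripts at least 1 log2 unit higher in donor endoderm and called there had a median NT log2 fold change, A485 over A486, of 0.0096, with 4 called higher and 4 called lower. The 3828 at least 1 unit higher in IVF ectoderm had a median of 0.05, with 2 called higher and 4 lower. The median of all tested transcripts was 0.01, with 0.0629% called higher and 0.106% called lower. In experiments 1, 2 and 3 the medians were 0.00142, -0.0342 and 0.0455 for the transcripts higher in donors. They were 0.109, 0.0338 and -0.0215 for those higher in IVF ectoderm, and 0.0295, -0.00698 and -0.00729 for all tested transcripts. The sign of the median thus changed between experiments in each set.

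An inhibitor of another domain of the same coactivators, SGC-CBP30 (CBP30), was given to donors at 40 µM in other experiments. It blocks the bromodomain, which binds acetylated lysine. In NT ectoderm 11 CBP30 and 12 DMSO libraries gave no call among 25668 transcripts (0%; edgeR, experiment block; smallest adjusted p 0.218), with 1504 (5.86%) at an unadjusted p under 0.05 and 46 calls by DESeq2. These libraries were counted on another set of targets, in which 10 of the 35 have the same length. Of the 22 tested there, 12 had the sign seen with A485, against 46.1% of all transcripts tested in both sets.

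The unadjusted p was under 0.05 for 5 of the 22. XBmRNA44953 averaged 33.8 ± 11.1 CPM with CBP30 and 22.5 ± 11.0 CPM with DMSO (SD, n = 11 and 12), a log2 fold change of 0.64 ± 0.23 (SE), and its sign was that seen with A485. XBmRNA30476 averaged 3.29 ± 3.17 CPM with CBP30 and 0.993 ± 1.12 CPM with DMSO, a change of 1.32 ± 0.54, opposite to A485. The others were XBmRNA46209 (-1.33 ± 0.61), XBmRNA38077 (-0.19 ± 0.08) and XBmRNA2551 (0.92), with the sign seen with A485.

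**Figure D4:**
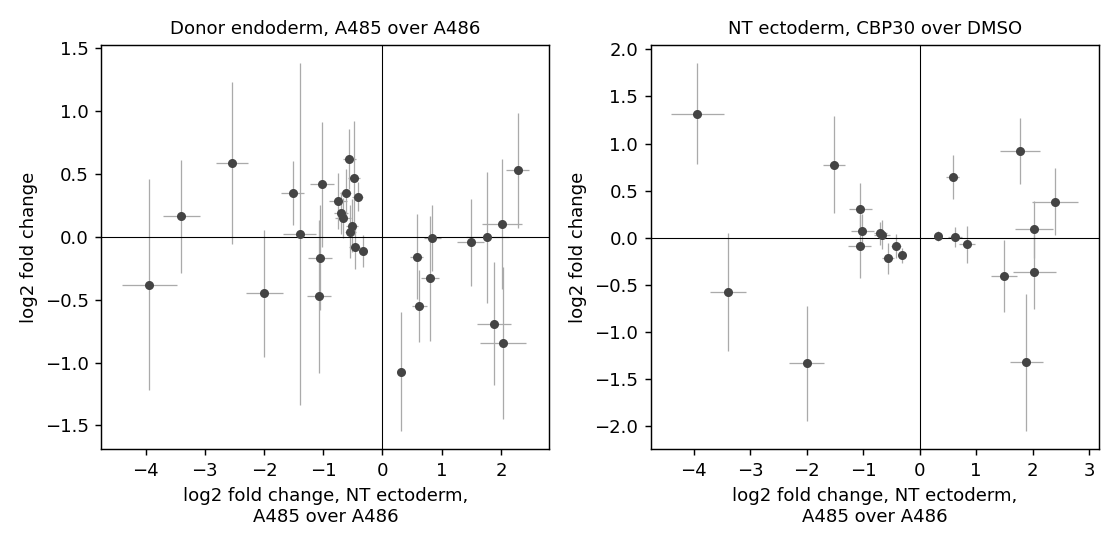
For the called transcripts, the log2 fold change in NT ectoderm, A485 over A486 (horizontal), against the log2 fold change in donor endoderm, A485 over A486 (left, 31 transcripts), and in NT ectoderm, CBP30 over DMSO (right, 22 transcripts), with bars of 1 SE. None of the vertical values passed the adjusted threshold, and in donors 8 of 31 share the sign of the horizontal value.

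The 35 transcripts were set beside all tested transcripts for other features that the files record. Their median length was 2340 bases, against 2489 for all tested transcripts. Of the 35, 2 had no mRNA identifier, against 0.948% of all tested transcripts. In 33 of the 35 at least 1 NT library held an expected count that was not whole within 0.001, against 80% of all tested transcripts. Part of the reads of these 33 was thus shared between similar targets, and a split between near-identical copies cannot be checked. Of the 4 transcripts called without each experiment in turn, XBmRNA30476 and XBmRNA74935 held such counts in 21 of the 24 libraries each, XBmRNA18476 in 6 and XBmRNA29620 in 2.

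By the numbers in their gene identifiers, the 35 fell into steps of 1000 numbers such that 23 of 45 steps held no call and the fullest held 5. The fullest stretch, from XBXL10_1g15863 to XBXL10_1g16508, held 8 of the 35 and 373 tested transcripts (1.8% of all tested). Of the tested transcripts 2.14% were called in it, against 0.133% outside it. The stretch was drawn from the first to the last of these 8 after the calls were seen, so these shares are a description. Whether the calls are spread unevenly was not tested. The 8 were XBmRNA29620 and XBmRNA29668, both higher with A485, and XBmRNA29603, XBmRNA29961, XBmRNA30152, XBmRNA30476, XBmRNA30750 and XBmRNA30999, all lower. Genome positions were not at hand, so whether neighbouring numbers are neighbouring genes was not tested.

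**Figure D5:**
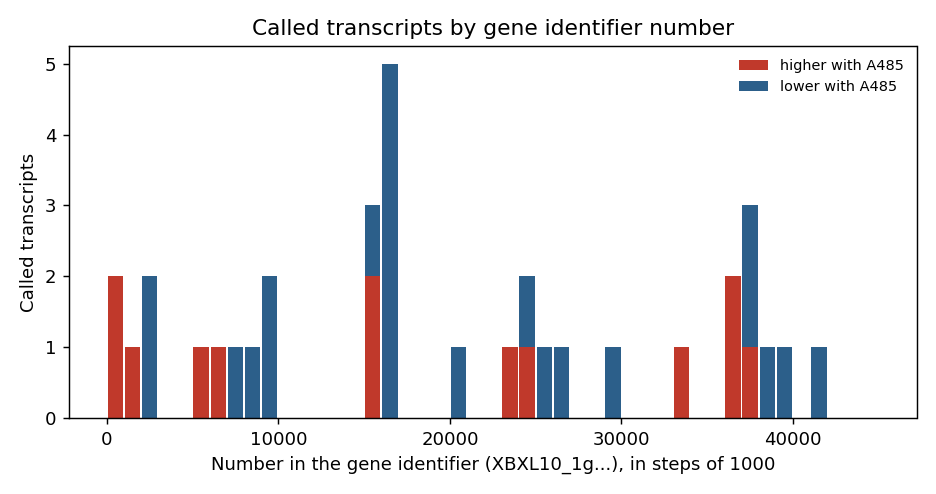
Number of called transcripts in each step of 1000 gene identifier numbers, stacked by direction (red, higher with A485; blue, lower). The tallest bar holds 5 transcripts and lies next to one of 3, and both fall in or around the stretch described in the text.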

How the data were processed

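Poly(A) RNA was sequenced as reads of 50 bp from 400 ng (ectoderm) or 300 ng (donor endoderm) of RNA, per the labels. The deposited expected counts, target lengths (an other kind of value) and TPM come from 1 abundance table per library. They were made with kallisto 0.48, per the submitters' processing notes, and its index and annotation are not given in the sources used here. Expected counts were rounded to whole numbers. Transcripts passing edgeR's expression filter were TMM-scaled and tested with edgeR 4.0.16 in R 4.3.3 (quasi-likelihood, two-sided, Benjamini-Hochberg over all tested). DESeq2 1.42.0 was an alternative. CPM were computed from the rounded counts. The deposited TPM were averaged only.

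The experiment number in the titles was the block. The 2 groups deviated together within the same experiment number (correlations of 0.601, 0.723 and 0.768 in experiments 1, 2 and 3). Correlations between different experiment numbers were not set beside these, so the pairing of the groups rests on the titles. Alternatives were scaling, filters, dispersion, tool, thresholds, and leaving out each library or experiment. Named transcripts were the 10 with the smallest adjusted p in each direction, those whose groups did not overlap, those with opposite signs in an experiment, and 3 called with opposite signs between experiments. Members and lists were chosen with earlier results of these data known. The test was run on simulated counts of independent libraries with the same spread for every transcript. Libraries that share donors were not simulated, so this run does not vouch for the error rate in these data. Another 8 fertilised ectoderm samples of the A485 set and 4 files tied to no sample record were not analysed here. The fertilised ectoderm and donor samples of the CBP30 set and the somite series were left out too.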

Additional observations from a re-analysis of the deposited data

Results flagged for a closer look

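Among the 120 groups of 4 to 6 libraries examined for the 20 transcripts named by rule, 14 held a library far from the others. Groups of 3 libraries were not examined. The rule used marks about 1 in 20 groups if values are normally distributed and of 1 population. The 14 of 120 are a larger share than that. CPM can be skewed, and the donor groups joined the 3 experiments, so this excess cannot be interpreted. In NT ectoderm of experiment 2, XBmRNA993 had 3.79 CPM in A486 library 5, with the next A486 library at 1.62 CPM. In A485 libraries of the same experiment, XBXL10_1g33259 reached 8.28 CPM in library 4 (next 4.94), XBmRNA30152 reached 34.8 CPM in library 5 (next 25.3), XBmRNA73234 reached 0.565 CPM in library 2 (next 0.304), and XBmRNA38077 was lowest in library 2 at 28.7 CPM (next 32.5).

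In donor endoderm, XBmRNA993 stood at 8.35 CPM in A485 library 1 and at 21.9 CPM in A486 library 1 of experiment 1, with the next libraries at 3.52 and 3.43 CPM. XBmRNA29668 stood at 9.79 CPM in A485 library 1 of experiment 1 (next 3.25). XBmRNA73234 reached 11.3 CPM in A486 library 1 of experiment 3 (next 0.263), XBmRNA765 reached 461 CPM in A486 library 2 of experiment 1 (next 95.7), and XBmRNA44953 reached 20.2 CPM in A486 library 1 of experiment 1 (next 11.6). In fertilised ectoderm, XBmRNA73234 was low in library 4 at 0.726 CPM (next 5.72), XBXL10_1g36288 held no count in library 1 (0 CPM, next 0.206), and XBmRNA765 was high in library 3 at 74.4 CPM (next 58.6).

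The effect of A485 differed between experiments for 580 transcripts by the edgeR treatment-by-experiment term. Of the called transcripts, this held for XBmRNA11146 (adjusted p = 0.00597), XBXL10_1g33259 (0.0389) and XBmRNA47410 (0.0471). It held also for XBXL10_1g25801 (1.22e-07), XBmRNA23489 (1.59e-07) and XBmRNA48721 (2.64e-07), which had opposite signs in 2 experiments. Its cause was not tested.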

How the results depend on the processing

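The number of transcripts called between A485 and A486 NT ectoderm (35 with the experiment block) was 7 without the block, all among the 35. It was 130 with DESeq2, which included all 35, 18 with at least 10 counts in every library, 15 at an adjusted p under 0.01, and 12 without experiment 1 or 81 without experiment 2. Leaving out 1 library gave 21 to 53, with 22 for each of 3 libraries. With no filter on low counts it was 36 (19 higher, 17 lower), including 27 of the 35. Of the 35, 17 were called with any library left out, 4 were called in every setting that tested them, and 0 changed direction in any. The setting with at least 10 counts in every library tested none of these 4 (XBmRNA29620, XBmRNA18476, XBmRNA74935 and XBmRNA30476). Each had libraries with fewer counts in the group where it was low, so it passed the filter through the group where it was high. The treatment-by-experiment term was called for 303 transcripts with at least 10 counts in every library, 1364 with DESeq2's likelihood ratio test, 153 without experiment 1, 141 without experiment 2 and 401 without experiment 3. With 1 library left out it was 327 to 1273, including 1196, 382 and 385 without A486 libraries 1, 2 and 5 of experiment 1, 375 without A485 library 3 of experiment 2, and 377 and 384 without A485 library 3 and A486 library 2 of experiment 3. With at least 10 counts in every library 47 were called within experiment 2 and 63 within experiment 3. With no filter 2530 were called within experiment 1. Experiments fitted alone gave 212 (experiment 1) and 89 (experiment 3). With 1 library left out the counts within experiments 1 and 3 ran from 129 to 5493 (1678, 1783 and 1469 without A486 libraries 2, 3 and 5) and from 77 to 157 (84 without A485 library 3). DESeq2 called 44 transcripts in donors and 46 with CBP30, where no filter gave 7, and leaving out experiment 2 or 3 gave 2 or 16. Of transcripts called without experiment 1, 2 or 3, the share with the same sign in the experiment left out was 60%, 46.7% and 72% as reported, 100% (3 of 3), 44.1% (15 of 34) and 66.7% (4 of 6) without the block, and 42.1%, 46.5% and 51.5% at an adjusted p under 0.2. These counts were read at 6468976 to 24820727 expected counts per library, which limits transcripts near the filter's minimum. The causes were not tested.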
